A study of Mus musculus and Mus musculus
Rattus norvegicus with 30 samples.

Results

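The comparison described here was between mouse embryonic stem cells (mESCs) in which a Cdx2 transgene had been induced and wild-type mESCs (WT). Members were taken by sample label: the induced group held 4 RNA-seq libraries, 2 of cells overexpressing mouse Cdx2 (mCdx2-OE) and 2 of cells overexpressing rat Cdx2 (rCdx2-OE), and the control group held 2 WT libraries. These are 6 of the 30 samples of the series and 6 of its 20 mESC RNA-seq libraries. The Cdx2 of either species was intact, and the 4 induced libraries were pooled as 1 group, called Cdx2-OE here. According to the study's methods, the Flag-tagged transgene was delivered by lentivirus and placed under a doxycycline (DOX) inducible Tet-On promoter, so transcription of the transgene required the drug. The mESCs were maintained with LIF, the MEK inhibitor PD0325901 and the GSK3 inhibitor Chir99021. The methods do not say whether this medium was kept during induction. The study describes its comparison as one of cells with and without DOX, but the labels call the controls WT and do not say whether they were uninduced transgenic cells or the parental line, so effects of induction, of DOX and of the cell line cannot be told apart. Nothing in the labels says that replicates came from separate cultures, and the p-values therefore measure the spread between these libraries only.

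Cdx2 is a homeodomain transcription factor. In the early embryo it is needed for the trophectoderm, the outer epithelium of the blastocyst that forms the placenta, and it later acts in the posterior body axis, where it regulates Hox genes, and in the intestinal epithelium. Forced expression of Cdx2 in mESCs is known to drive them away from pluripotency and towards trophoblast-like cells. The results are ordered accordingly, from Hox genes and trophoblast genes to pluripotency, signalling, and the growth and metabolic gene families.

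Polyadenylated RNA was read as strand-specific counts per gene. The WT libraries held 74960057 and 94686029 counts and the induced libraries held 12967233 to 24315929, so chance variation was larger in induced cells for genes with few reads. Of 19919 genes counted in both replicate tables, 16080 passed edgeR's filter on low counts. Levels are given as CPM, the count scaled to the TMM-adjusted size of its library, and no level was divided by transcript length. A gene was called higher or lower when edgeR's quasi-likelihood F test gave an adjusted p (Benjamini-Hochberg) under 0.05 and the fold change exceeded 2. In all, 3048 genes (19.0%) were called higher and 2642 (16.4%) lower in Cdx2-OE cells. At any fold, 73.3% of genes had an adjusted p under 0.05. The induced libraries lay above both WT libraries without overlap in 37.3% of genes and below them in 42.7%. The median log2 fold change of all genes was -0.07. Scaling by library totals instead of TMM raised this median to 0.15 and gave 3693 higher and 2026 lower genes, so that 64.6% instead of 53.6% of the calls were higher. The first principal component took up 86.7% of the variance and the second 6.07%. The 8 stem cell markers summed to 5446 and 5578 CPM in WT and to 2850 to 3332 CPM in induced libraries, so stem cell transcripts were abundant in every library. In bulk RNA, fewer cells of a type and less RNA per cell cannot be told apart.

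**Figure D1:**
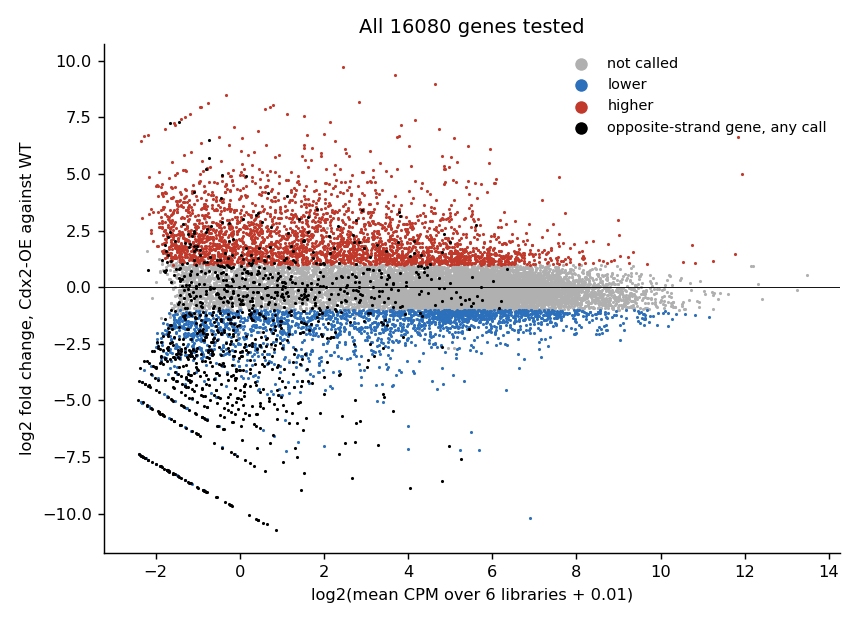
Each point is 1 of the 16080 genes tested, with the log2 of its mean CPM over the 6 libraries on the x axis and its log2 fold change, Cdx2-OE against WT, on the y axis. Red genes were called higher (19.0% of all genes), blue genes lower (16.4%) and grey genes not called, with genes that lie opposite a far more abundant gene in black whatever their call.

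The promoters shown first are those of list members that carried the most Cdx2 ChIP-seq reads, because binding at the gene start and the RNA level can be set side by side there. The study called 91665 Cdx2 peaks on merged reads of the mCdx2-OE and rCdx2-OE ChIP-seq libraries. Of the 1035 list members tested, 754 had a promoter of 250 bases before to 50 bases after the start in RefSeq (GRCm38.p6), and 24 of these overlapped a peak. Of the 24 genes, 9 were called higher, 7 lower and 8 not called, against 19.0% higher and 16.4% lower over all genes. The lists were chosen with earlier results of these data known, so these counts do not tell whether genes with a bound promoter changed more often. The 3 promoters with the most reads belong to different Hox clusters. The promoter of the placental gene Plac1 was added and was chosen after its values were seen. Capitals mark CNATAAA on either strand, a form of the Cdx recognition motif.
Hoxb8: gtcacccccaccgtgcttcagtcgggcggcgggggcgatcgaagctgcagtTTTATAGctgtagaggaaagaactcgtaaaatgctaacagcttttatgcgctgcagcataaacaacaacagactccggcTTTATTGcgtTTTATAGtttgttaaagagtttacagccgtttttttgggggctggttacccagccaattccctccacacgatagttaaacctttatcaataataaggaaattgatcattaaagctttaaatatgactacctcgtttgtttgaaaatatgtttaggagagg
Hoxd4: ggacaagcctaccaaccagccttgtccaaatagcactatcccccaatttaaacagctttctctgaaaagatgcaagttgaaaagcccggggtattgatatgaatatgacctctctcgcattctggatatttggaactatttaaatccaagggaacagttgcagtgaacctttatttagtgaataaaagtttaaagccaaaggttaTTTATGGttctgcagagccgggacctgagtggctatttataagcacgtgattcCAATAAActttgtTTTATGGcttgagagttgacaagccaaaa
Hoxa7: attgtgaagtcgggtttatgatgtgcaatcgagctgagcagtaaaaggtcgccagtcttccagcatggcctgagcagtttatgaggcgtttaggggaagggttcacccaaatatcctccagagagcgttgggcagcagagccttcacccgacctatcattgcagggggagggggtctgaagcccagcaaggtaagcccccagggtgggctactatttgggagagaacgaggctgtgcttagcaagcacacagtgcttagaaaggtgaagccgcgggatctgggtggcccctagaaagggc
Plac1: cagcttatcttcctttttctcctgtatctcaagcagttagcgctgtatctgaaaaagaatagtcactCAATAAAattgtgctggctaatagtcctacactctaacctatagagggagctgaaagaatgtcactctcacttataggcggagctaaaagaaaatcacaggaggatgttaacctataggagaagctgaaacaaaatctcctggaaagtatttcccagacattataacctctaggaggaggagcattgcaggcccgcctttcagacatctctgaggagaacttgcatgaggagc
The Hoxb8 window was chr11:96281655-96281954 on the plus strand, and its peak held 336 mCdx2-OE and 345 rCdx2-OE reads. The Hoxd4 window was chr2:74721728-74722027 on the plus strand, with 201 and 173 reads. The Hoxa7 window was chr6:52218524-52218823 on the minus strand, with 162 and 187 reads. The Plac1 window was chrX:53240061-53240360 on the minus strand, with 56 and 46 reads. The motif occurred 3 times in the Hoxb8 window, 3 times in the Hoxd4 window, 1 time in the Plac1 window and not in the Hoxa7 window. It was present in 10.8% of all 32412 promoters of the table and in 34.7% of the 550 that overlapped a Cdx2 peak. Among promoters of genes called higher, lower and not called the shares were 7.99%, 6.78% and 6.51%. A match in these letters is a description of the window and not evidence of a site.

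Cdx2 itself (ENSMUSG00000029646, chr5:147300805-147307270, minus strand, GRCm38) was the check of the labels. Its level was 1.4 and 1.25 CPM in the WT libraries, 99.3 and 128 CPM in the mCdx2-OE libraries and 71.3 and 67.3 CPM in the rCdx2-OE libraries. All 4 induced libraries were above WT and the groups did not overlap. The means were 1.33 ± 0.108 CPM (SD, n = 2) in WT and 91.5 ± 28.3 CPM (SD, n = 4) in Cdx2-OE. Cdx2 was 69.1-fold higher, a log2 fold change of 6.11 with a standard error of 0.35 (adjusted p = 2.2e-06, edgeR, quasi-likelihood F test, Benjamini-Hochberg). These reads sum the endogenous gene and the transgene, and rat reads were counted only as far as they aligned to the mouse gene. Its paralogue Cdx1 was lower, at 61.4 and 58.5 CPM in WT against 22.7 to 31.7 CPM, a log2 fold change of -1.06. The fall of Cdx1 was short of 2-fold with upper quartile scaling (-0.95) and with offsets for length and GC content (-0.55).

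Hox genes, which encode the homeodomain factors that specify position along the body axis, rose in all 4 clusters. All 10 tested genes of the Hoxa cluster were called higher, against 19.0% of all genes, with a median log2 fold change of 4.56. The counts were 5 of 7 in the Hoxb cluster (median 3.37), 6 of 8 in the Hoxc cluster (median 3.44) and 8 of 8 in the Hoxd cluster (median 4.41), and no Hox gene was called lower. Hoxb7, Hoxb13, Hoxc12 and Hoxc13 did not pass the call, with log2 fold changes of 1.33, -0.66, -0.01 and 0.97.

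Hoxa9 (ENSMUSG00000038227, chr6:52223100-52231089, minus strand), a posterior gene of the Hoxa cluster, was read 4 times in all in WT. Its level was 0.0292 and 0.0236 CPM in WT, 18.5 and 23.7 CPM in mCdx2-OE and 14.9 and 20.3 CPM in rCdx2-OE. The induced libraries lay far above WT without overlap, with a log2 fold change of 9.36 ± 0.35 (SE). Hoxa10 was at 0.102 and 0.0589 CPM in WT and at 5.49 to 8.83 CPM in induced libraries, a log2 fold change of 6.45 ± 0.33 (SE). Hoxa7, whose promoter is printed above, was at 0.715 and 0.672 CPM in WT, 14.7 and 16.4 CPM in mCdx2-OE and 11.1 and 12.3 CPM in rCdx2-OE. This was a 19.6-fold rise (log2 4.29 ± 0.21 SE). The more anterior gene Hoxa4 rose 4.48-fold.

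Hoxd4 was at 0.0438 and 0.0236 CPM in WT, from 5 reads, and at 9.34, 11.6, 9.58 and 11.6 CPM in the induced libraries. The log2 fold change was 8.19 ± 0.28 (SE), and the groups did not overlap. Hoxd3 had 1 read in WT and 99 in induced libraries, a ratio of depth-scaled counts of 194 with a 95% counting interval of 34.1 to 7757. The annotated spans of Hoxd3 and Hoxd4 overlap on the same strand, so the division of reads between them is uncertain. Hoxb8 was at 0.073 and 0.0353 CPM in WT and at 2.12, 1.24, 1.44 and 1.55 CPM in induced libraries (log2 4.85 ± 0.42 SE). Hoxc9 was at 0.131 and 0.0236 CPM in WT and between 2.06 and 3.4 CPM in induced libraries (log2 5.09 ± 0.5 SE).

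The TALE homeodomain proteins, which bind DNA together with Hox proteins, moved less. Of 11 tested, 5 were higher and none lower, with a median of 0.79. Meis1 was at 0.817 and 1 CPM in WT and at 5.77, 6.02, 6.39 and 6.56 CPM in induced libraries, a 6.74-fold rise. Meis3 was at 0.861 and 0.895 CPM in WT, 2.84 and 2.88 CPM in mCdx2-OE and 5.73 and 5.6 CPM in rCdx2-OE, so its rCdx2-OE libraries were the higher ones.

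**Figure D2:**
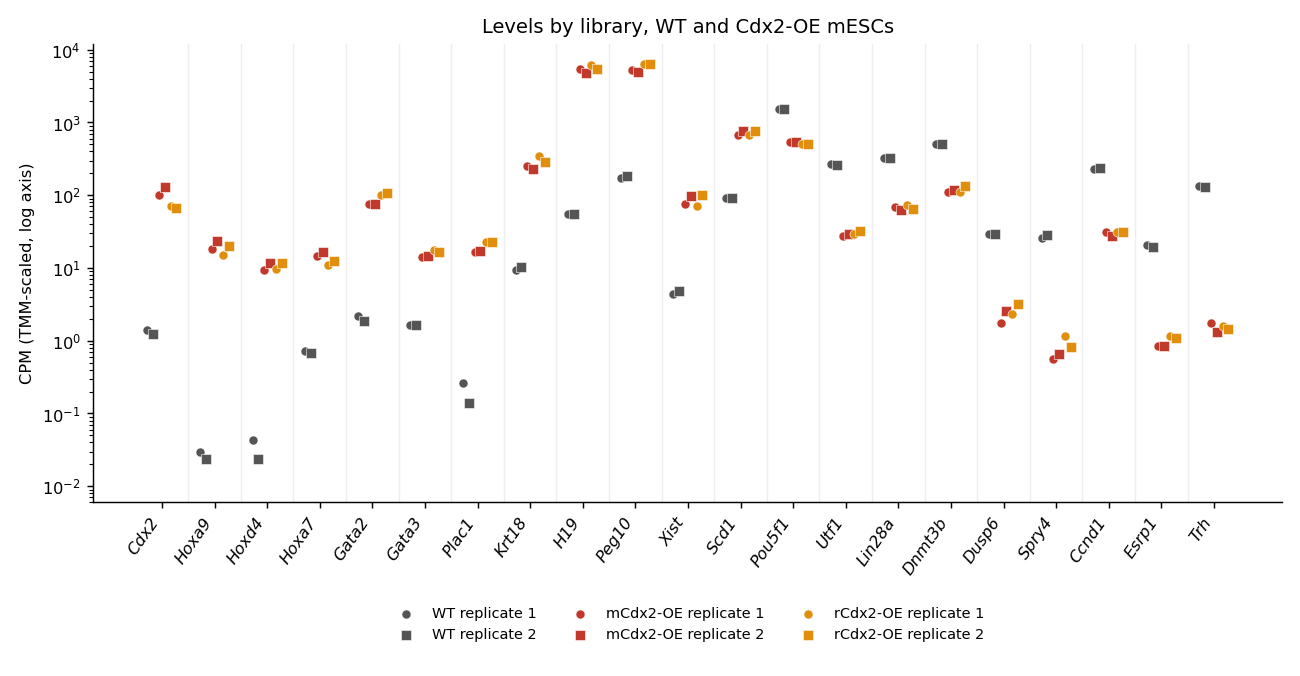
Levels in CPM on a log axis of 21 genes that the text describes, with circles for replicate 1 and squares for replicate 2, in grey for WT, red for mCdx2-OE and orange for rCdx2-OE. From Cdx2 to Scd1 the 4 induced libraries lie above both WT libraries, and from Pou5f1 to Trh they lie below both.

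Fitted apart, mCdx2-OE gave 3094 higher (18.1%) and 2718 lower genes (15.9%) of 17133 tested, and rCdx2-OE gave 3273 (19.0%) and 2790 (16.2%) of 17263, each against the same WT libraries. Side by side, the medians for mCdx2-OE and rCdx2-OE were 4.70 and 4.32 for the Hoxa cluster, 4.44 and 4.79 for placental genes, -0.85 and -0.96 for core and naive pluripotency genes and -0.98 and -1.02 for ribosomal protein genes. Both proteins gave the same sign as the pooled group in each of these lists, but the pooled group is made of these same libraries. In the list of cadherins and epithelial-mesenchymal regulators the pooled median was 0.04. There the medians were 0.04 for mCdx2-OE and -0.15 for rCdx2-OE.

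Trophoblast stem cell factors and placental genes rose. Of 14 tested transcription factors and receptors of trophoblast stem cells, 9 were higher and none lower (median 2.42). Gata2, a zinc finger factor of trophoblast and blood progenitors, was at 2.2 and 1.87 CPM in WT, 76.1 and 75.4 CPM in mCdx2-OE and 101 and 108 CPM in rCdx2-OE. The groups did not overlap, and the log2 fold change was 5.47 ± 0.22 (SE). Gata3, which acts beside Cdx2 in trophectoderm, was at 1.65 and 1.67 CPM in WT and at 14.1, 14.4, 17.6 and 16.5 CPM in induced libraries, a 9.42-fold rise. Ascl2, a helix-loop-helix factor of the ectoplacental cone, rose 3.16-fold, from 4.55 and 4.63 CPM to between 11.5 and 18.3 CPM. Dlx3, Esx1 and Id2 rose 29.5-fold, 26.7-fold and 25.3-fold, and Fgfr2, the receptor through which FGF4 maintains trophoblast stem cells, rose 6.06-fold.

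The list did not move as a whole. Eomes, Tfap2c, Tead4, Sox21 and Tfap2a did not pass the call. Eomes, a T-box factor of trophoblast stem cells and primitive streak, was at 8.04 and 8.84 CPM in WT and at 3.12 to 5.05 CPM in induced libraries (log2 -0.99). Tfap2c was at 125 and 126 CPM in WT and 117 to 149 CPM in induced libraries, with overlapping groups. Elf5, a defining trophoblast stem cell factor, had 4 and 1 counts in WT and 13, 1, 3 and 2 in induced libraries and was not tested. Of the 5 trophoblast markers, which include Cdx2, 4 were tested, 2 were higher and none lower.

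All 7 tested genes of differentiated placental trophoblast were higher (median 4.59). Plac1, an X-linked placental gene, was at 0.263 and 0.141 CPM in WT, 16.8 and 16.9 CPM in mCdx2-OE and 22.5 and 23.1 CPM in rCdx2-OE, a 99.0-fold rise (log2 6.63 ± 0.28 SE). Gcm1, the factor that drives syncytiotrophoblast formation, was at 1.11 and 0.954 CPM in WT and at 19.6, 21.5, 31.3 and 33.2 CPM in induced libraries. For both genes the rCdx2-OE libraries were above the mCdx2-OE libraries, and no test between the species was part of this comparison. The X-linked homeobox genes Rhox6 and Rhox9 rose 24.0-fold and 23.3-fold, and Phlda2, an imprinted regulator of placental growth, 10.4-fold.

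Epithelial genes rose in part. Of 6 tested simple epithelial keratins 5 were higher and 1 lower (median 4.24). Krt18, the acidic keratin of simple epithelia, was at 9.24 and 10.2 CPM in WT, 255 and 232 CPM in mCdx2-OE and 347 and 289 CPM in rCdx2-OE (28.9-fold). Its partner Krt8 rose 14.7-fold and Krt7 rose 45.7-fold. Krt42 was the keratin that was lower, at 8.77 and 8.62 CPM in WT and 1.33 to 4.41 CPM in induced libraries. Of 18 tight junction and water channel genes 8 were higher and none lower (median 0.98), with Cldn4 2.92-fold and Cldn3 7.13-fold up. Cdh1, the epithelial cadherin, was at 453 and 457 CPM in WT and at 315 to 330 CPM in induced libraries, a difference below 2-fold.

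Regulators of the epithelial-mesenchymal transition split evenly, with 4 of 13 higher and 4 lower, against 19.0% and 16.4% of all genes. The mesenchymal genes Cdh2, Snai2 and Zeb2 rose 4.64-fold, 4.65-fold and 8.83-fold. Cdh2, N-cadherin, was at 5.37 and 4.69 CPM in WT and at 22.8, 27.1, 19.6 and 24.2 CPM in induced libraries. The intermediate filament gene Vim fell 6.69-fold, from 320 and 317 CPM to between 46.1 and 49.7 CPM. The epithelial splicing factor gene Esrp1 fell 19.9-fold, from 20.5 and 19.3 CPM to between 0.849 and 1.17 CPM, and the epithelial factor Grhl2 fell 5.51-fold. Mesenchymal genes of the list thus moved each way, and no epithelial gene of it was called higher. In the Hippo pathway, whose effectors YAP and TAZ act with Tead factors in trophectoderm, 6 of 22 genes were higher and 1 lower. The shares over all genes were again 19.0% and 16.4%. The Hippo median was 0.66, and 0.33 with offsets for length and GC content. Wwtr1, which encodes TAZ, rose 3.2-fold and Tead3 3.11-fold, whereas Yap1 and Tead4 had log2 fold changes of -0.17 and 0.15.

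Intestinal genes, the other epithelium in which Cdx2 acts, were poorly represented. Only 10 of the 20 genes written in the list were in the count table and 9 were tested, of which 4 were higher and 2 lower (median 0.36, and -0.89 when genes averaging under 50 counts were left out). Isx, an intestinal homeobox gene, was at 0.0584 and 0 CPM in WT and at 2.63, 2.49, 1.99 and 1.99 CPM in induced libraries (log2 6.27 ± 0.57 SE). Krt20 rose from 0.146 and 0.0825 CPM to between 2.28 and 3.78 CPM. Cdh17, a cadherin of intestinal epithelium, had 1 count in each WT library and 0 to 2 in induced libraries and was not tested.

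Pluripotency genes fell in part. Of 20 genes of the core and naive network, 10 were lower, against 16.4% of all genes, and none higher (median -0.94, against -0.07 over all genes). Pou5f1, which encodes Oct4, was at 1513 and 1516 CPM in WT, 534 and 538 CPM in mCdx2-OE and 506 and 503 CPM in rCdx2-OE. It fell 2.91-fold without overlap, with a log2 fold change of -1.54 ± 0.06 (SE; adjusted p = 4.6e-07, edgeR, quasi-likelihood F test, Benjamini-Hochberg). Sox2 fell 2.11-fold, from 480 and 507 CPM to between 205 and 265 CPM, and was below 2-fold with offsets for length and GC content (log2 -0.93). Utf1, a chromatin-associated factor of stem cells, fell 8.96-fold, from 268 and 262 CPM to between 27.5 and 32.1 CPM. Lin28a, an RNA-binding inhibitor of let-7 maturation, fell 4.87-fold, and Nr0b1 fell 4-fold.

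Other members were above WT. Nanog was at 555 and 558 CPM in WT and at 941, 803, 847 and 722 CPM in induced libraries, a difference of 0.57 on the log2 scale that did not reach 2-fold. Tfcp2l1 (0.64), Klf4 (0.47) and Tbx3 (0.21) also had positive log2 fold changes under 1. Esrrb and Zfp42 had values of -0.52 and -0.8. Of 15 genes of the formative and primed epiblast, the later pluripotent state, 7 were lower and none higher (median -0.61), among them Lef1 (5.11-fold) and Dnmt3b (4.27-fold). Otx2, at a log2 fold change of -0.53, did not pass the call.

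The de novo DNA methyltransferases fell together. Dnmt3b was at 505 CPM in each WT library and at 112, 118, 110 and 134 CPM in induced libraries. Dnmt3a fell 3.6-fold and Dnmt3l, the catalytically inactive cofactor, 4.82-fold. Tet3, which oxidises methylated cytosine, rose 5.25-fold from 8.74 and 10 CPM to between 47.6 and 51.4 CPM, while Tet1 had a log2 fold change of -0.49. Genes that DNA methylation commonly silences outside the germline were higher in 10 of 17 cases and lower in none (median 1.15). Dazl, a germ cell RNA-binding protein gene, rose 3.41-fold and Brdt, a testis bromodomain gene, 6.98-fold.

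Genes of the 2-cell-like state, a rare state of mESC cultures with transcripts of the early embryo, were higher in 15 of 16 cases (median 2.39). Zscan4c was at 2.99 and 4.95 CPM in WT and at 19.5, 25.5, 18.2 and 24.4 CPM in induced libraries, a 5.45-fold rise without overlap. Zfp352 rose from 0.0876 and 0.106 CPM to between 2.94 and 3.9 CPM. Duxf3, the gene of the factor that starts this state, was called at 2.72-fold, but 1 rCdx2-OE library at 0.0737 CPM lay below both WT libraries. The Zscan4, Usp17l and Tcstv genes are near-identical copies, so reads could not be assigned to members with certainty and these genes do not count as independent.

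**Figure D3:**
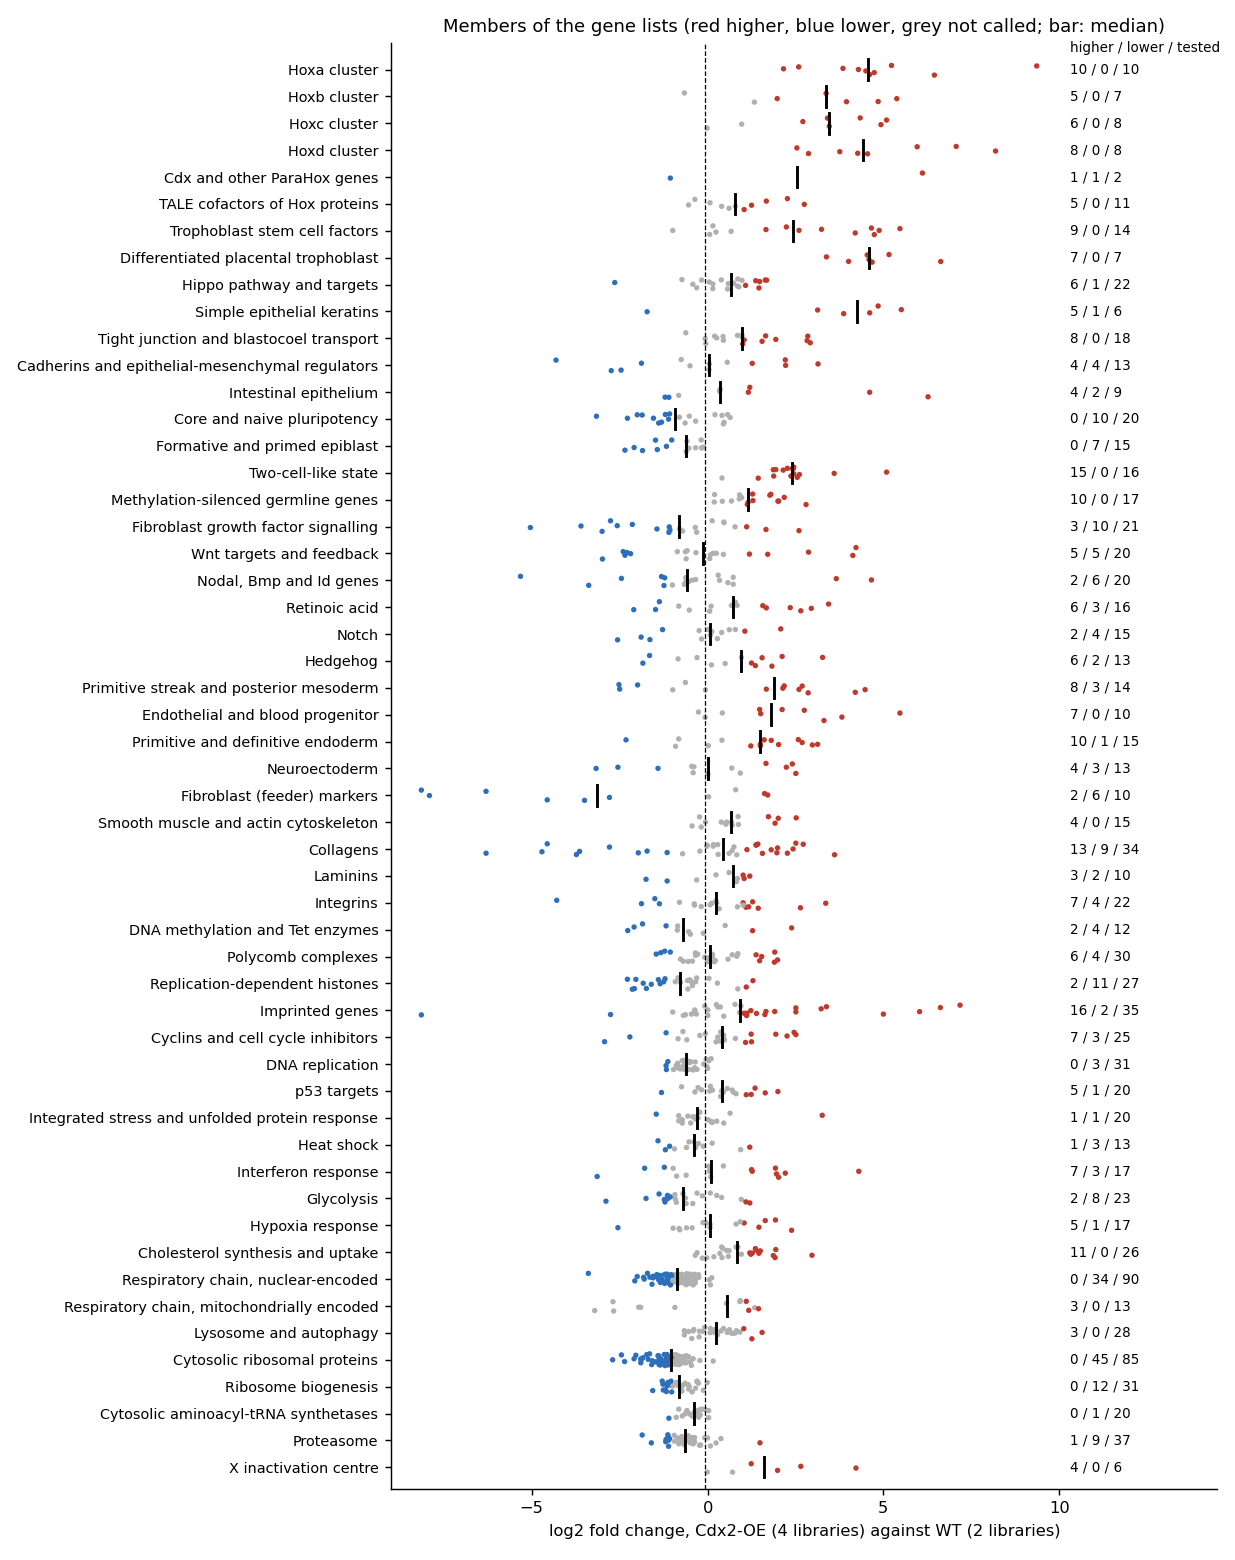
Log2 fold change, Cdx2-OE against WT, of every tested member of the 53 gene lists, with a black bar at the list median and the dashed line at the median of all genes (-0.07). The numbers at the right give higher, lower and tested genes, and the Hox, placental and keratin lists sit farthest to the right whereas the feeder list sits farthest to the left.

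Growth factor signalling genes fell most in the FGF pathway. Of 21 genes, 10 were lower and 3 higher (median -0.80). Besides the ligand genes Fgf17 and Fgf3, of which Fgf3 (log2 -1.07) was not called with upper quartile scaling (-0.96) or library totals (-0.85), the genes that fell encode feedback inhibitors of the pathway and transcription factors downstream of ERK. Dusp6, an ERK phosphatase, was at 29 and 29.1 CPM in WT and at 1.78, 2.55, 2.3 and 3.24 CPM in induced libraries (12.1-fold lower). Spry4, a feedback inhibitor of receptor signalling, fell from 25.7 and 28 CPM to between 0.552 and 1.17 CPM (32.9-fold). The ETS factor gene Etv4 fell 6.76-fold. The ligand gene Fgf4 had a log2 fold change of only -0.31. The maintenance medium held an inhibitor of MEK, the kinase that activates ERK, and its part in these levels was not tested.

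Nodal, Bmp and Id genes were lower in 6 of 20 cases and higher in 2 (median -0.58). Over all genes 16.4% were called lower and 19.0% higher. Bmp4 fell 10.4-fold, from 17.5 and 18.7 CPM to between 0.981 and 2.06 CPM, and Bmp2 rose 12.7-fold at a low level. Id2 and Id3, which encode inhibitors of helix-loop-helix factors, moved apart. Id2 rose from 2.1 and 1.99 CPM to between 45.6 and 59.2 CPM, and Id3 fell from 48.5 and 50.6 CPM to between 7.64 and 10.5 CPM.

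Wnt targets and feedback genes were split, with 5 of 20 higher and 5 lower, against 19.0% and 16.4% of all genes. The part of the GSK3 inhibitor of the maintenance medium in the levels of these Wnt genes was not tested. Dkk1, a secreted Wnt inhibitor, rose 18.6-fold and Axin2, a general target of the pathway, had a log2 fold change of -0.86. The 12 tested genes of the Wnt ligand family were 8 higher and 2 lower (median 2.76). Wnt4 was at 0.131 and 0.118 CPM in WT and at 2.16 to 2.77 CPM in induced libraries (19.2-fold), Wnt6 rose 17.5-fold and Wnt7b 11.9-fold. Wnt5b and Wnt3a, by contrast, fell 7.97-fold and 4.9-fold.

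Retinoic acid genes were higher in 6 of 16 cases and lower in 3 (median 0.73). Dhrs3, a retinal reductase gene induced by retinoic acid, rose 10.8-fold, from 1.09 and 1.32 CPM to between 11.8 and 13.9 CPM, and Cyp26a1, which degrades retinoic acid, rose 6.28-fold. Rarb rose 7.71-fold, although Top2b lies on its opposite strand at over 10 times its level. Rarg fell, with a log2 fold change of -2.1. In the Hedgehog list 6 of 13 genes were higher and 2 lower. The target Gli1 fell 3.58-fold, the target Ptch1 had a log2 fold change of 0.11, and Hhip, a membrane-bound inhibitor, rose 9.61-fold. Notch genes were higher in 2 of 15 cases and lower in 4, against 19.0% and 16.4% of all genes.

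Lineage genes other than those of trophoblast also moved. In the list of primitive streak and posterior mesoderm, 8 of 14 genes were higher and 3 lower (median 1.90). The genes that rose encode later mesoderm factors at low levels. Foxc1 went from 0.0876 and 0.106 CPM to between 2.1 and 2.62 CPM, and Hand1, which is also a trophoblast giant cell factor, rose 18.4-fold. The streak genes T and Evx1 fell 5.65-fold and 3.96-fold. When genes averaging under 50 counts were left out, the list's median was -0.92. Endothelial and blood progenitor genes were higher in 7 of 10 cases, with Tie1 at 0.759 and 0.672 CPM in WT and 6.63 to 8.11 CPM in induced libraries.

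Endoderm genes were higher in 10 of 15 cases and lower in 1 (median 1.5). Gata6, a primitive endoderm factor, was at 0.598 and 0.789 CPM in WT and at 4.88, 7.33, 5.45 and 7.22 CPM in induced libraries (8.77-fold). Gata4 rose 4.05-fold and Dab2 6.44-fold, and Apoe fell 4.99-fold, from 1135 and 1125 CPM to between 195 and 256 CPM. The 4 endoderm markers Gata4, Gata6, Sox17 and Foxa2 summed to 1.74 and 2.07 CPM in WT and to 9.63 to 11.7 CPM in induced libraries. Neuroectoderm genes were higher in 4 of 13 cases and lower in 3, against 19.0% and 16.4% of all genes. The 5 neural markers summed to 96.5 and 96.1 CPM in WT and 35.9 to 51.2 CPM in induced libraries.

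Fibroblast transcripts, which feeder cells of an mESC culture could contribute, had the lowest median of the 53 lists. Of 10 listed genes that were tested, 6 were lower and 2 higher (median -3.14). Col3a1, a fibrillar collagen gene of fibroblasts, was at 4.29 and 4.28 CPM in WT and at 0, 0, 0.0779 and 0.147 CPM in induced libraries. Dcn and Mmp3 were at 0 in all 4 induced libraries, at least 23.9-fold and 20.2-fold lower than in WT against 3 counts over the group. The feeder markers as a whole summed to 41.2 and 40.2 CPM in WT and to 16.2 to 20.1 CPM in induced libraries, with Dcn, Lum and Mmp3 at 0 there. The part of feeder RNA in this difference was not tested.

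Collagens were higher in 13 of 34 cases and lower in 9. The fibroblast collagen genes Col1a1 and Col1a2 fell 6.91-fold and 23.7-fold, whereas Col4a2, a basement membrane collagen gene, rose. It was at 7.47 and 8.13 CPM in WT and at 44.7, 50, 54.7 and 56.3 CPM in induced libraries (6.58-fold). Of 15 actin cytoskeleton genes 4 were higher, among them the tropomyosin genes Tpm1 (4.02-fold) and Tpm2 (5.73-fold), and none was lower. Integrin genes were higher in 7 of 22 cases and lower in 4, against 19.0% and 16.4% of all genes. Itgb3 was 6.25-fold higher and Itgb7 19.5-fold lower.

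Imprinted genes rose in 16 of 35 cases and fell in 2 (median 0.91). H19, a maternally expressed long non-coding RNA, was at 55.1 and 56 CPM in WT, 5509 and 4728 CPM in mCdx2-OE and 6249 and 5383 CPM in rCdx2-OE. The groups did not overlap, and H19 was 98.4-fold higher (log2 6.62 ± 0.15 SE). Its neighbour Igf2, a fetal growth factor gene, was read 22 times in WT, at 0.0876 and 0.189 CPM, and was at 20.5, 16.6, 23.3 and 24.1 CPM in induced libraries (log2 7.18 ± 0.29 SE). Peg10, a retrotransposon-derived placental gene, was at 175 and 183 CPM in WT and at 5306, 4875, 6401 and 6378 CPM in induced libraries (32.1-fold). Airn, the antisense RNA of the Igf2r locus, rose 65.2-fold whereas Igf2r had a log2 fold change of 0.25. Nnat fell 6.77-fold.

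Xist, the RNA that coats an inactivated X chromosome, was at 4.36 and 4.85 CPM in WT and at 75.5, 96.6, 70.6 and 102 CPM in induced libraries, an 18.6-fold rise (log2 4.22 ± 0.19 SE). Its antisense gene Tsix had a log2 fold change of -0.01, with overlapping groups. Of 6 genes of the X inactivation centre 4 were higher and none lower. The X chromosome as a whole had a positive median. Its 558 tested genes had a median of 0.54, with 33.5% called higher and 8.06% lower, whereas the medians of the autosomes lay between -0.29 (chromosome 17) and 0.28 (chromosome 3). With offsets for length and GC content the X median was 0.42. Whether the lines differed in chromosome number was not tested.

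Cell cycle genes were mixed. Ccnd1, cyclin D1, was at 233 and 234 CPM in WT and at 31.7, 27.2, 31.4 and 31.6 CPM in induced libraries, a 7.65-fold fall, and its partner Cdk6 fell 4.62-fold. The inhibitor Cdkn1c, which is imprinted and used in trophoblast giant cells, rose 5.68-fold, and Rb1 rose 3.85-fold. Over the list of cyclins and inhibitors 7 of 25 were higher and 3 lower. Ccna2 and Cdkn1a had log2 fold changes of 0.42 and 0.37. Of 31 replication genes 3 were lower and none higher (median -0.61). Polycomb genes were higher in 6 of 30 cases and lower in 4, among the latter Phc1 (2.76-fold lower), with Ezh2 at -0.34 on the log2 scale. Over all genes 19.0% were called higher and 16.4% lower, so the Polycomb counts lay near those shares.

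Ribosomal protein genes were the list with the most lower calls. Of 85 tested, 45 were lower and none higher (median -1.05), against 16.4% lower over all genes. Rps14 was at 1775 and 1822 CPM in WT and at 609, 496, 617 and 509 CPM in induced libraries (3.22-fold lower). Rpl22l1 fell 5.47-fold, whereas Rpl4, at 2602 and 2644 CPM in WT and 2065 to 2425 CPM in induced libraries, did not pass the call. Genes of the ribosome biogenesis list were lower in 12 of 31 cases and higher in none, among them Fbl (2.94-fold). The list also holds the transcription factor gene Mycn, which was among the lower ones (2.45-fold). Myc was called at 2.04-fold, but not with upper quartile scaling (log2 -0.92), library totals (-0.81) or the length and GC offsets (-0.89). Nuclear-encoded respiratory chain genes were lower in 34 of 90 cases and higher in none (median -0.86), with Cox7c falling 3.54-fold, and proteasome genes were lower in 9 of 37 and higher in 1. Ribosomal protein and respiratory chain transcripts are short, and ribosomal protein genes have many near-identical pseudogene copies that can take their reads.

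Gene length moved with the fold change over all genes. The shortest eighth of genes, up to 1540 bases, had a median of -0.71 and 39% lower calls, and the longest eighth, from 8484 bases, a median of 0.31 and 5.77% lower calls. Offsets for length and GC content were fitted to these same libraries, a fit added after the data had been seen. They take out any trend with length, whatever its origin. With these offsets the ribosomal protein median was -0.76 and the respiratory chain median -0.54. The median was -0.91 for ribosome biogenesis genes (-0.82 without offsets) and -0.61 for proteasome genes (-0.63 without offsets). The part of transcript length or of RNA and library preparation in these lists was not tested. The replication-dependent histone genes, which were 11 of 27 lower with a median of -0.77, had a median of 0.28 under the same offsets, so no direction is given for them.

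Metabolic lists went different ways. Cholesterol synthesis and uptake genes were higher in 11 of 26 cases and lower in none (median 0.83). Scd1, a stearoyl-CoA desaturase gene, was at 91.3 and 92.3 CPM in WT and at 677, 760, 679 and 764 CPM in induced libraries (7.84-fold). Glycolysis genes were lower in 8 of 23 cases and higher in 2 (median -0.70), with Pdk1 falling 7.39-fold and Ldha 2.35-fold, while the glucose transporter gene Slc2a1 rose 2.3-fold. Gapdh was at 85.1 CPM in 1 WT library and at 3381 CPM in the other, so its counts in WT cannot be used. Vegfa rose 5.23-fold.

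Mitochondrially encoded genes were higher in 3 of 13 cases, but their WT libraries disagreed. The gene mt-Co2 was at 138 and 0.978 CPM in the WT libraries, and mt-Co3 at 152 and 0.848 CPM, so no direction is given for the list. Of the stress lists, the integrated stress response had the smallest share of calls, against 35.4% of all genes. In the integrated stress response 1 of 20 genes was higher and 1 lower, with Atf3 9.56-fold higher. Of 20 p53 targets 5 were higher and 1 lower, and of 13 heat shock genes 1 was higher and 3 were lower. Interferon response genes were higher in 7 of 17 cases and lower in 3. The sensor gene Ddx58 fell 8.84-fold, from 85.4 and 85.7 CPM to between 9.22 and 9.93 CPM, and Rsad2 rose 19.7-fold.

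Over all genes, the largest rises among called genes that averaged 50 counts or more and had no overlap included those of Hoxa9, Ren1, Hoxd4, Tnnt3, Pla2g7, Nav3, Igf2, Gjb2 and Fam90a1b. Ren1, the renin gene, was at 0.0438 and 0.0943 CPM in WT and at 49.3, 34.1, 39.9 and 26.5 CPM in induced libraries (log2 8.98 ± 0.42 SE). Gjb2, a connexin gene of epithelia, rose from 0.321 and 0.295 CPM to between 32.8 and 47.4 CPM (log2 6.99 ± 0.24 SE). Pla2g7, a secreted phospholipase gene, went from 0.117 and 0.189 CPM to between 25.3 and 29.5 CPM. Tnnt3 had 3 reads in WT, a ratio of depth-scaled counts of 220 with a 95% counting interval of 74.6 to 1072.

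The largest falls by the same rule were all of genes that overlap a more abundant gene on the opposite strand. They were Gm33051, Gm17103, Gm37401, Gm20406, Gm26636, Gm12977, Anxa11os, Gm16534, Gm28192 and Gm11739, each at 0 in the 4 induced libraries. Gm33051, which lies opposite Rpl22l1, was at 6.23 and 4.63 CPM in WT and was at least 139-fold lower in Cdx2-OE. Over all 1047 tested genes with an opposite-strand gene of at least 10 times their WT level, 57.5% were called lower and 11.1% higher. Among the other 15033 genes 33.1% were called, 13.6% lower and 19.5% higher. Where the opposite gene was above 100 CPM (483 genes), the median gene held 1.65% and 1.38% of its partner's level in the WT libraries and 0.309% to 0.406% in the induced libraries. How far these WT counts are reads of the opposite strand was not tested.

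**Figure D4:**
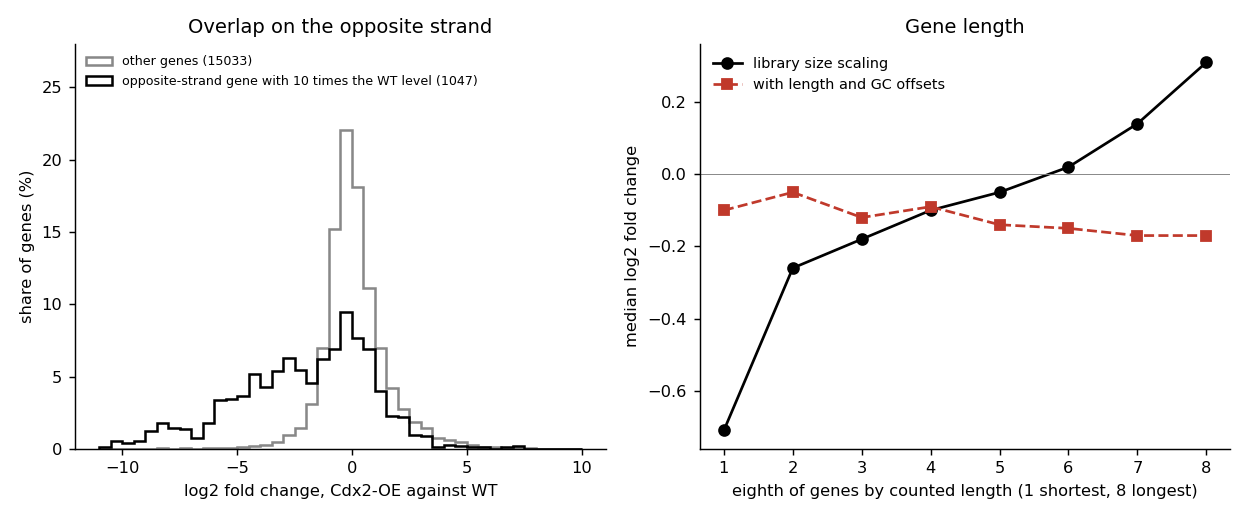
Left, the share of genes (%) by log2 fold change for the 1047 genes with an opposite-strand gene of at least 10 times their WT level (black) and the other 15033 (grey). Right, the median log2 fold change by eighth of gene length, rising from -0.71 to 0.31 with the usual scaling (black) and nearly flat with length and GC offsets (red). The offsets were fitted to the trend in these same libraries, so the flat line was set in advance.

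Among genes without such a partner, the largest falls included Platr8, Lox, Sla2, Vrtn and Trh, which were chosen after their values were seen. Trh, the thyrotropin-releasing hormone gene, (chr6:92242061-92244650, minus strand) was at 132 and 130 CPM in WT and at 1.78, 1.31, 1.6 and 1.47 CPM in induced libraries (log2 -6.39 ± 0.1 SE). Sla2 was at 8.42 and 6.96 CPM in WT and at 0.127, 0, 0.0779 and 0 CPM in induced libraries. Lox, a collagen crosslinking enzyme gene, was at 12.1 and 11.7 CPM in WT and at 0 to 0.212 CPM in induced libraries. For Trh, Sla2 and Lox the groups did not overlap, which was a condition of their choice.

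Gene families were also ordered by name alone, over the 256 symbol stems with at least 8 tested genes. A stem takes in every gene whose symbol starts with it before a number, so the Hoxb and Hoxd stems also hold an antisense gene each. The 5 highest medians were those of Hoxa (4.56), Hoxd (4.55), Krt (3.87), Hoxb (3.66) and Hoxc (3.44), followed by the Wnt ligands. Calcium channel genes (stem Cacna, 7 of 9 higher and 1 lower, median 2.13), T-box genes (stem Tbx, 5 of 9 higher, median 1.82) and the clustered protocadherins of stem Pcdhga (8 of 11 higher, median 1.37) were among the 10 highest. Tbx15 went from 0.409 and 0.259 CPM to between 7.3 and 8.88 CPM. The lowest median was that of Platr, non-coding RNAs named for their association with pluripotency, with 14 of 23 lower and none higher (median -1.17). Proteasome (Psmb, -1.08) and mitochondrial import (Tomm, -1.02) stems followed among the lowest. With the length and GC offsets Platr was not the lowest, at -0.8 against -0.96 for stem Dnah, -0.85 for Psmb and -0.81 for Tomm.

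Cdx2 peaks near the start were no more frequent at genes that moved. A peak lay within 1 kb of the start of 5.41% of genes called higher, 5.53% of genes called lower and 7.95% of genes not called, and within 30 kb of 75.9%, 70.5% and 76.8%. In ATAC-seq, with 1 WT and 1 mCdx2-OE library and 122350 peaks, the median log2 ratio of peaks within 1 kb was 0.515 at higher, 0.0693 at lower and 0.349 at uncalled genes. Of the 10 Hoxa genes, 4 had a Cdx2 peak within 1 kb, and the list's median ATAC ratio was 0.856. Plac1 had an ATAC ratio of 5.09 on the log2 scale at its start. With 1 library a condition, these are values without a test.

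**Figure D5:**
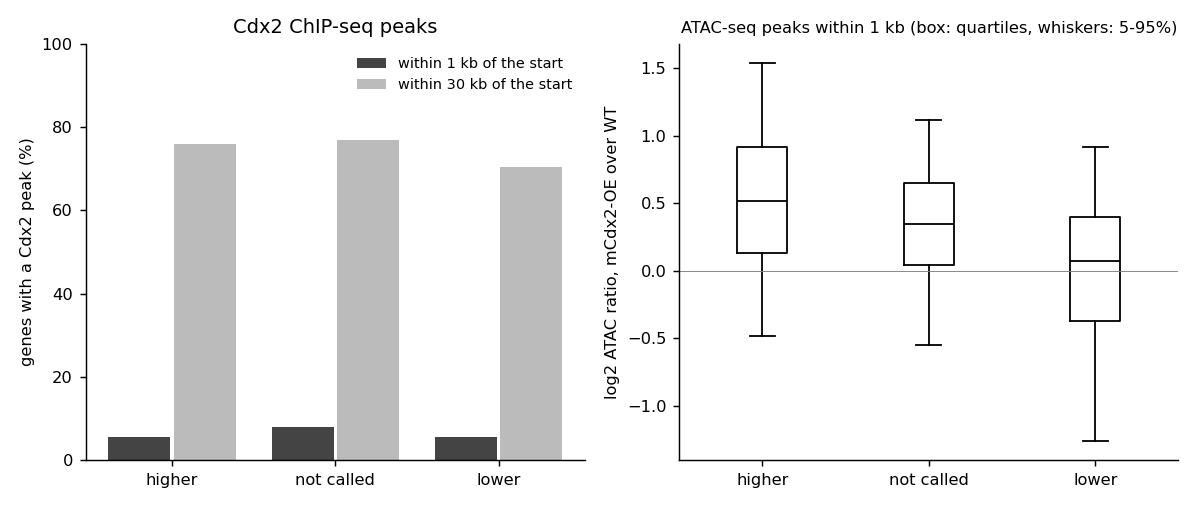
Left, the share of genes (%) with a Cdx2 ChIP-seq peak within 1 kb (dark bars) or 30 kb (light bars) of the start, by call in RNA-seq, where uncalled genes have the highest share at 1 kb (7.95%). Right, log2 ATAC-seq ratios of mCdx2-OE over WT at peaks within 1 kb of the start, with boxes at quartiles and whiskers at 5 and 95%, where genes called higher have the highest median (0.515).

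RMES cells, fused from a haploid mouse and a haploid rat stem cell, gave a further set of 2 WT and 2 induced libraries, read here on the mouse allele as directions only. Of 2847 genes called higher in mESCs and measured there, 88.4% were also above 0 in RMES cells, and of 2343 genes called lower 76.8% were below 0. The share among lower genes without an opposite-strand partner was 73.9%. Over all genes 50.8% were above 0. These directions were read against WT RMES cells, whose Cdx2 level was unlike that of WT mESCs, as given below. All 7 placental genes and all 10 measured genes of the 2-cell-like list were above 0, and 84 of 85 ribosomal protein genes were below 0. In 3 of the 4 Hox clusters most genes went the other way, with 8 of 9 Hoxa genes, 5 of 7 Hoxb genes and 5 of 8 Hoxc genes below 0. Hoxa9 was at 43.9 and 46.7 CPM in WT RMES cells and at 3.27 and 3.95 CPM in induced ones, so its level in WT differed from that in WT mESCs. The 6 measured Hoxd genes were all above 0. Hox genes were not the only ones that did not carry over. Of the fibroblast list, whose median was -3.14 in mESCs, 5 genes were above 0 and 3 below in RMES cells. Of the cholesterol list, whose median was 0.83 in mESCs, 12 were above 0 and 13 below. Cdx2 was at 129 and 127 CPM in the WT RMES libraries, against 1.4 and 1.25 CPM in WT mESCs, so the controls of these lines also differed in Cdx2. The WT RMES levels were above the mean of the induced mESC libraries. On the mouse allele Cdx2 was at 968 CPM in the mCdx2-OE RMES library and at 4.45 CPM in the rCdx2-OE RMES library. Reads assigned to the rat genome were not counted, so the level on this allele did not check the label of the latter. Its 4.45 CPM also lay far below both WT RMES libraries, and the cause of this fall was not tested.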

How the data were processed

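RNA-seq of polyA RNA from mESCs covered 20 libraries, of which 6 were analysed. Per the labels and the file headers, cutadapt 2.6 was used by the authors for trimming and STAR 2.7.0d for alignment to mm10, and they counted read pairs per gene by strand with featureCounts (version 1.6.0 in the header of replicate 2; the table of replicate 1 has no such line). The values are counts that the authors deposited without normalisation. Replicate 1 and replicate 2 were counted in separate runs, which listed 19919 and 34923 genes, and the 19919 shared genes were kept. Groups came from the sample labels.

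Tests were run in R 4.3.3 with limma 3.58.1 and edgeR 4.0.16: TMM scaling, filterByExpr over the 2 groups, and the quasi-likelihood test of Cdx2-OE (n = 4 libraries) against WT (n = 2 libraries) without covariates. DESeq2 1.42.0 was an alternative. Calls needed a Benjamini-Hochberg adjusted p under 0.05 over all genes tested and a fold change over 2. Standard errors were derived from the log2 fold change and the F statistic. The code was tested on simulated data. A gene at 0 in a group is given as a bound against 3 counts over the group, and 1 to 3 counts as a ratio with a 95% interval that covers counting error only.

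The 53 gene lists and the members were chosen with earlier results of these data known, and lists are described by counts and medians without a set test. Named genes were Cdx2, genes the paper names, the 10 largest rises and falls over all genes (called, mean of at least 50 counts, no overlap), the 3 largest rises and falls of each list by the same conditions, and other list members with their values. Genes outside that rule are said to be chosen after their values were seen, as are the single genes of the families Wnt and Tbx. Some genes that the rule names are not reported here.

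Gene positions and opposite-strand exon overlaps came from GENCODE vM21 on GRCm38, the assembly of mm10. Promoters came from RefSeq. ChIP-seq and ATAC-seq values are the counts in peaks that the authors deposited (5550846 and 6223794 counts for ChIP-seq, 6109353 and 8277850 for ATAC-seq), called with MACS2 on merged reads. ATAC peaks needed 40 normalised reads, and 1 was added before taking log2. ChIP-seq and ATAC-seq columns were matched to conditions by their abbreviated headers. RMES counts on mm10 were compared as log2 of CPM plus 0.5. Other steps used Python 3.11.15, pandas 2.3.3 and matplotlib 3.10.9.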

Additional observations from a re-analysis of the deposited data

Results flagged for a closer look

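Among 342 quantities of the 4 induced libraries (the levels of 289 genes taken by the naming rule or the text and the medians of 53 gene lists), 13 had 1 library that stood apart by Dixon's criterion at the 95% level, which chance alone meets in about 1 of 20 groups. In each case the gap from that library to the nearest of the other 3 took up most of the range of the 4.

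In mCdx2-OE replicate 2 the library stood apart for Ccnd1, which encodes cyclin D1 (27.2 CPM, against 31.4 to 31.7 CPM in the other 3), for the cell cycle inhibitor gene Cdkn2b (4.71 CPM, against 5.84 to 6.04 CPM), for the pyruvate dehydrogenase kinase gene Pdk1 (20.6 CPM, against 15.5 to 16.3 CPM) and for the glycolytic gene Pgam1 (163 CPM, against 150 CPM in each of the other 3). It was also the only induced library with a read of Platr8 (0.0654 CPM), and its median over the Hoxc genes was 1.89 as a log2 ratio to WT with 0.5 CPM added. In mCdx2-OE replicate 1, Tie1 was at 8.11 CPM, against 6.63 to 6.8 CPM, and Lrrc75aos2 was at 0.0424 CPM, a single read, against 0 in the other 3.

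In rCdx2-OE replicate 2 the library stood apart for the Hippo pathway factor gene Tead4 (43.5 CPM, against 38.5 to 39.2 CPM), for the Hedgehog target Gli1 (4.27 CPM, against 3.47 to 3.6 CPM) and for the interferon-stimulated gene Rsad2 (4.57 CPM, against 4.03 to 4.12 CPM). In rCdx2-OE replicate 1, Pla2g7 was at 29.5 CPM, against 25.3 to 26 CPM, and the tricellular junction gene Marveld2 was at 6.19 CPM, against 4.57 to 4.84 CPM. For each of these genes all 4 induced libraries lay on 1 side of both WT libraries, and Tead4 was the only one that was not called.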

How the results depend on the processing

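Cdx2 was called higher under every alternative, with a log2 fold change from 5.75 (rCdx2-OE libraries alone) to 6.46 (mCdx2-OE libraries alone). The 5690 calls fell to 3769, of which 2002 were higher, when genes averaging under 50 counts per library were left out. Without a fold threshold there were 11784 calls (5552 higher and 6232 lower), and with a threshold of 4 there were 2376 (1336 and 1040). Leaving out each library in turn gave 5503 to 5772 calls. DESeq2 gave 5585, and a test against a fold of 2 gave 3961. Autosomal genes alone gave 5340. Gene length and GC offsets and the removal of opposite-strand genes were chosen after seeing the data and gave 5369 and 4980 calls. A replicate block gave 5741 calls (3046 higher and 2695 lower), 5666 of them shared with the fit without the block. Same-numbered libraries did not deviate together in every pair, so the numbers were not taken as pairing. The correlation was 0 for WT and mCdx2-OE, -0.01 for WT and rCdx2-OE and 0.44 for mCdx2-OE and rCdx2-OE. The induced libraries of the same number thus shared part of their deviation and may not be independent, although the fit treats them so.

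Of 288 genes taken by the naming rule or the text, 103 lost their call in at least 1 alternative. The threshold of 4 alone took away 103 calls, because it removes every call under 4-fold by definition. The test against a fold of 2 took away 28, the length and GC offsets 22 and library totals 15. Upper quartile scaling took away 7, DESeq2 2 and RLE scaling 1. The genes that changed sign were not called, and the cause was not tested. The WT libraries disagreed for Gapdh, mt-Co2 and mt-Co3, and leaving out libraries gave log2 fold changes of -0.72 to 4.65 for Gapdh, -5.58 to 4.37 for mt-Co2 and -6.16 to 4.77 for mt-Co3, with the sign turned where WT replicate 1 was left out. Tsix changed to 0.02 with RLE scaling, 0.1 with upper quartile scaling, 0.21 with library totals, 0.06 with the filter at 50 counts, 0.04 with DESeq2, 0.01 with all 20 mESC libraries, 0.0 with mCdx2-OE alone and 0.05 with rCdx2-OE alone, and to between -0.34 and 0.33 with libraries left out. Hoxc12 changed to 0.02, 0.1, 0.2, 0.03, 0.01, 0.05 and 0.01 under the same settings without that filter, to 0.06 with autosomal genes, to 0.79 with the offsets and to between -0.39 and 0.45 with libraries left out. Yap1 changed to 0.04 with library totals, Igf2r to -0.1 and Ptch1 to -0.32 with the offsets, and Tfap2c ranged from 0.0 to 0.15 with libraries left out. The medians of 9 of the 53 lists changed sign under at least 1 alternative. They were the lists of Wnt targets, neuroectoderm, epithelial-mesenchymal regulators, intestinal epithelium, primitive streak, replication-dependent histones, mitochondrially encoded respiratory genes, hypoxia and Polycomb complexes.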

Other observations

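Of 10 laminin genes, which encode the cross-shaped proteins of the basement membrane, 3 were higher and 2 lower (median log2 fold change 0.71). The shares over all genes were 19.0% and 16.4%. Lamb1 went from 35.3 and 34.1 CPM in WT to 79.4, 68, 95.2 and 75.4 CPM in induced libraries (2.29-fold higher), whereas Lama3, an epithelial alpha chain, went from 73.1 and 72.3 CPM to 21.1, 23.2, 20.3 and 22 CPM (3.36-fold lower). Neither gene overlapped between the groups. Lamc1 and Lama5 had log2 fold changes of 0.85 and 0.24 and were not called.

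Of 28 lysosome and autophagy genes 3 were higher and none lower (median 0.24). Psap, which encodes the precursor of the saposins that help lysosomal enzymes to degrade sphingolipids, was at 289 and 283 CPM in WT and at 882, 750, 916 and 796 CPM in induced libraries (2.93-fold higher). Of 17 genes of the hypoxia response 5 were higher and 1 lower (median 0.07, and -0.06 with the length and GC offsets). Adm, which encodes adrenomedullin, was the lower one, from 1.52 and 1.38 CPM to 0.255, 0.327, 0.195 and 0.221 CPM (5.86-fold). Of 20 cytosolic tRNA synthetase genes 1 was lower and none higher (median -0.38). Over all genes tested 19.0% were called higher and 16.4% lower.

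Among the families grouped by name, annexin genes (stem Anxa) were higher in 6 of 11 cases and lower in 1 (median 1.27), and the lipid transporter genes of stem Abca were higher in 5 of 8 cases and lower in 0 (median 1.55). These families were chosen after their values were seen.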
